A study of Mus musculus with 17 samples.

Results

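Late preimplantation embryos, at the 8-cell and blastocyst stages, were set against the oocyte and the 1-cell embryo, which still live largely on RNA laid down by the mother. The comparison used every array titled with one of these 4 stages, 14 of the 17 in the series, and left out the 3 arrays of 2-cell embryos, which lie between the groups. The late group had 3 blastocyst and 4 8-cell arrays, and the early group had 3 1-cell and 4 oocyte arrays. Each stage counted equally within its group, whatever its number of arrays. All samples were mouse total RNA that was amplified by in vitro transcription in 2 rounds, and each was hybridised to 1 Affymetrix MG-U74Av2 array. The labels gave no treatment, genotype, strain or age of the mothers, and did not state the meiotic stage of the oocytes or how many embryos made up a sample. Nothing in them tells whether replicates were separate pools of embryos, so every p-value rests on the spread among arrays of a stage, which may be technical. With 3 or 4 arrays a stage, their number sets the precision.

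A growing oocyte fills itself with messenger RNA and then stops transcription. After fertilization this store is degraded in steps while the embryo's own genome is switched on, a hand-over known as the maternal-to-zygotic transition. In the mouse the main wave of embryonic transcription begins at the 2-cell stage, the 8-cell embryo compacts, and the blastocyst consists of an outer trophectoderm, which pumps fluid into a cavity, and an inner cell mass that gives rise to the fetus.

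The late and early arrays differed far more from each other than the stages within each era did. Signals, 1 per probe set and array, were compared as log2(signal + 10.7), a scale on which folds of dim genes come out too small, for 7803 probe sets that stood for 5877 genes. Correlations between 2 arrays of 1 stage ran from 0.943 to 0.979 over the probe sets tested. Arrays of the 2 stages within an era correlated at 0.786 to 0.889, and late with early arrays at 0.375 to 0.516. The first principal component carried 72.8% of the variance. Its scores ran from 75.3 to 81.8 on the 7 late arrays and from -91.45 to -66.25 on the 7 early arrays, so the eras did not overlap. The second component, with 11.1%, separated blastocysts from 8-cell embryos.

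**Figure D1:**
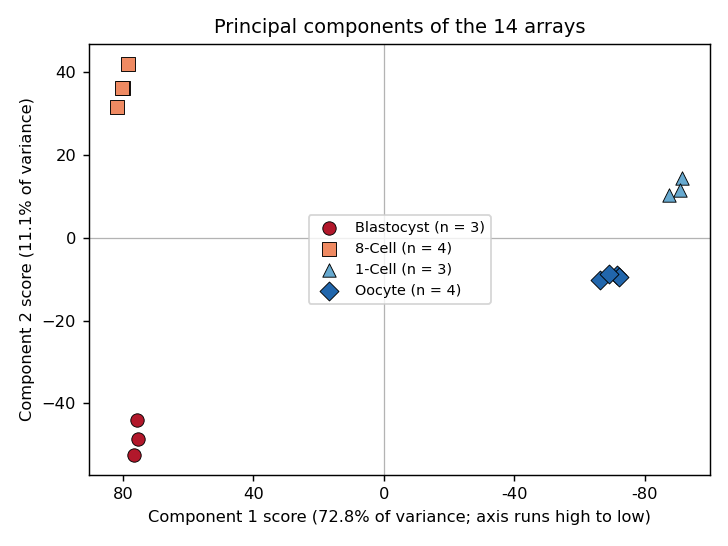
Scores of the 14 arrays on the first 2 principal components of log2(signal + 10.7), 1 point per array, coloured by stage, with the first component drawn from high to low so that late stages stand on the left. The 7 late arrays lie between 75.3 and 81.8 on the first component and the 7 early arrays between -91.45 and -66.25.

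On average over the stages, 2974 probe sets were higher in late embryos (38.1% of those tested) and 2890 were lower (37%), at an adjusted p below 0.05 in limma's moderated test. A stricter reading asked for the same direction in all 4 contrasts of a late with an early stage, each passing the test, and probe sets that met it are called held here. This left 1669 probe sets held higher (21.4%) and 1550 held lower (19.9%), or 1254 and 1236 genes. The signals of the 7 late and 7 early arrays did not overlap for 1517 of the probe sets held higher and for 1412 of those held lower. Among all probe sets tested, the late arrays lay wholly above the early ones for 1565 (20.1%) and wholly below for 1496 (19.2%). Holding already asks for separation on the same arrays, so the lack of overlap is no further support. Many held changes were large: 1158 probe sets were higher and 1042 lower by at least 2-fold in all 4 contrasts, 493 and 448 by at least 4-fold, and 72 and 90 by at least 16-fold. The median held change was 2.14 among probe sets held higher and -1.97 among those held lower, on the log2 scale. A further 1305 probe sets were called higher and 1340 lower on average without holding, and among these 170 and 119 had contrasts called in opposite directions.

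The split between higher and lower depends on how arrays are scaled. The deposited signals share a near-equal trimmed mean, so every change is relative to the average transcript on the array. When each array was instead scaled to its hybridisation controls, RNAs added before hybridisation, 38.9% of the average calls were higher against 50.7% with the deposited scaling. The median change of all probe sets moved to -0.35, from -0.01 with the deposited scaling. The number held higher dropped to 799, of which 793 were among the 1669, and 1243 were held lower, 1101 of them among the 1550. Out of 7803 probe sets, these 799 and 1243 are the background for list counts under that scaling. No probe set turned from held higher to held lower or the reverse. The hybridisation controls themselves averaged 9.95 in blastocysts and 11.1 in 8-cell embryos, against 10.7 in 1-cell embryos and 9.60 in oocytes (mean log2 signal). The log2 ratio of 3′ to 5′ signal of the actin control, a sign of how much of the transcript's length was copied, averaged 1.14 in blastocysts and 1.95 in 8-cell embryos, against 2.08 in 1-cell embryos and 2.05 in oocytes. The same ratio of the GAPDH control had another order, with 2.59 in blastocysts and 1.04 in 8-cell embryos, against 2.24 in 1-cell embryos and 2.12 in oocytes. The part of these ratios in the results was not tested. In bulk RNA, fewer cells with a transcript and less of it per cell cannot be told apart, and RNA per embryo was not measured.

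**Figure D2:**
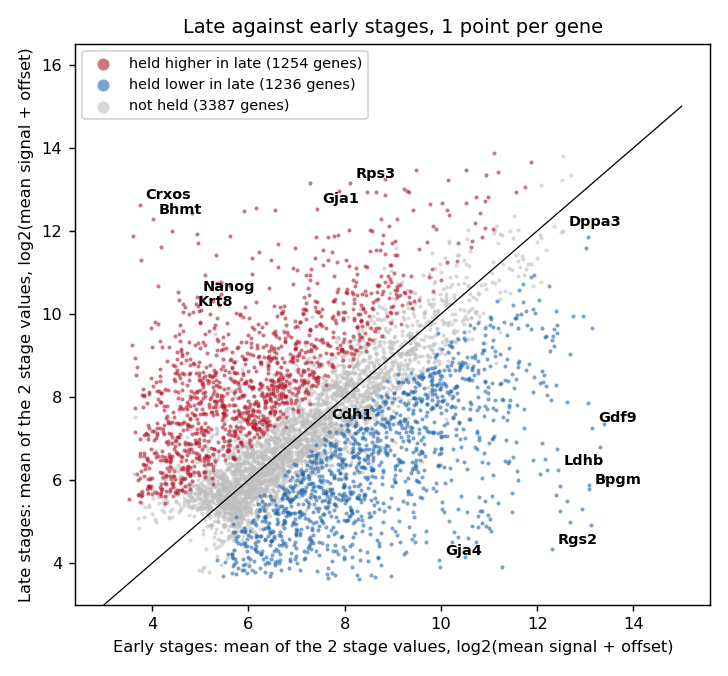
Late (vertical) against early (horizontal) signal for each of 5877 genes, as the mean over the 2 stages of log2(mean signal + 10.7), with genes held higher in red, held lower in blue and the others in grey. The 1254 genes held higher lie above the diagonal and the 1236 held lower lie below it, while Dppa3 and Cdh1 sit near it.

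Known products of the oocyte were among the genes that fell furthest. Rgs2, a regulator of G-protein signalling, had signals of 0.6 to 37.0 (median 10.8) on the 7 late arrays, against 3296 to 7112 (median 5273) on the 7 early arrays. Its change of -7.98 ± 0.16 (log2, SE) had an adjusted p of 4.91e-18. Tcl1b1, a relative of the Tcl1 oncogene, had 12.6 to 58.2 (median 37.7) in late embryos and 3772 to 8416 (median 4465) in early samples, with a change of -7.23 ± 0.11. For both genes every late array was far below every early one, but a lack of overlap was part of the rule that picked the largest changes. Btg4, an adaptor that brings the deadenylase complex to messenger RNA in the maturing oocyte, had 3.2 to 69.1 (median 35.2) in late embryos and 4459 to 10751 (median 5845) in early samples. H1f8, the linker histone of the oocyte, had 9.1 to 76.4 (median 47.2) in late embryos and 4004 to 10752 (median 5213) in early samples. Other genes of this size of fall were C86187 (-8.20 ± 0.13), Trim61 (-7.67 ± 0.16), Miox, which opens the ring of inositol (-7.36 ± 0.14), and Itpr2, a calcium release channel (-7.23 ± 0.18). Bpgm, which makes bisphosphoglycerate, had 23.2 to 99.9 (median 32.9) in late embryos and 5345 to 12656 (median 7491) in early samples. These genes were below or close to the filter level of 41.1 in late embryos, so the exact size of their change depends on the offset. Probe sets of Itpr2 and H1f8 carry a suffix that marks a departure from the usual choice of probes, and Tcl1b1 belongs to a cluster of near-identical copies whose signals may be shared. Probe sets of several genes named below, such as Sox2, Gja1, Cldn7 and Actb, carry a marked suffix too.

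The start regions of 3 of these genes and of the zona gene Zp3 are shown because oocyte-specific promoters, such as those of the zona pellucida genes, are known for E-boxes, the sites of the oocyte factor FIGLA and of many other basic helix-loop-helix proteins. Each stretch runs from 250 bases before to 50 bases after the annotated start, on the plus strand of RefSeq's GRCm38.p6, and every match to the E-box letters CANNTG is in capitals. They are Zp3 at chr5:135979855-135980154, H1f8 at chr6:115944681-115944980, Btg4 at chr9:51115751-51116050 and Tcl1b1 at chr12:105159454-105159753.
Zp3: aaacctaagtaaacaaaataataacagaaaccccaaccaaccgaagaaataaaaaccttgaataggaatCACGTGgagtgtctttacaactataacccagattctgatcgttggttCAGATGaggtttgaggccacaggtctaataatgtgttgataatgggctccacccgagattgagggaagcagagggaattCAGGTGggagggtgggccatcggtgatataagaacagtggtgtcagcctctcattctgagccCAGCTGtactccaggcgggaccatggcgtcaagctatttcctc
H1f8: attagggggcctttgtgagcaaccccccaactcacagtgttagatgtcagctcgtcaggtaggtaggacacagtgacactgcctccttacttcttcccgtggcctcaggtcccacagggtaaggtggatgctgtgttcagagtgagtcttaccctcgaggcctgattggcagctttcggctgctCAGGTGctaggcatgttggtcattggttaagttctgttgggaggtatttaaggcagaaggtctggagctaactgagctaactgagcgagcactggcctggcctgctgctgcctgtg
Btg4: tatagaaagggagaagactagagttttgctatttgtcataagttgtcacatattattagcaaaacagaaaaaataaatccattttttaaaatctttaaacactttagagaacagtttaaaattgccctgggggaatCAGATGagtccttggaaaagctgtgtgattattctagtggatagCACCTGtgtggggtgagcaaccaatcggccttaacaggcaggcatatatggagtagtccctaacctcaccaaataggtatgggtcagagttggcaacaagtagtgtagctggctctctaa
Tcl1b1: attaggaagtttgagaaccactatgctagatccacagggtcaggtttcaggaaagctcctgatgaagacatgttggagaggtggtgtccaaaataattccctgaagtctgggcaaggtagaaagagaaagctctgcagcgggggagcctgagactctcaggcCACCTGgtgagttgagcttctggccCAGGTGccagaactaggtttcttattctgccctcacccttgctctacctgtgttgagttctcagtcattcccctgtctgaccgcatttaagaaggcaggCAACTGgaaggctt

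Zp3 held 4 matches, Tcl1b1 held 3, Btg4 held 2 and H1f8 held 1. Counted on both strands, CANNTG was in 45 of 61 promoters (73.8%) of genes held lower by at least 16-fold, in 64.7% of all those held lower and in 60.5% of those held higher. The share was 62.9% over all genes tested (2981 of 4741) and 72.1% over all promoters in the table, so the letters are common everywhere. The E-box CACGTG, a special case of CANNTG, was in 11.6% of promoters of genes held lower, 13.4% of those held higher and 11.1% of all genes tested. The homeobox element TAATTG or TAATTA, known from targets of the oocyte factor NOBOX, was in 7.6%, 4.8% and 6.7% of the same sets. GGAATG, the TEAD letters, was in 110 of 1014, 124 of 1036 and 546 of 4741 promoters, and TATAAA in 7.1%, 7.6% and 8.1%. These are descriptions of letters, with no test and no measure of binding.

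Among coat proteins, secreted factors and germ cell regulators of the oocyte, more were held lower than higher. Of 12 secreted and germ cell regulators tested, 7 were held lower and 1 higher, with a median change of -4.09, against 21.0% lower, 21.3% higher and a median of -0.04 over all genes tested. Gdf9, the growth factor by which the oocyte instructs its follicle, had 91.9 to 211 (median 155) in late embryos and 7299 to 11968 (median 8000) in early samples, a change of -5.89 ± 0.10. Its partner Bmp15 had 4.3 to 10.1 (median 6.0) in late embryos and 843 to 1888 (median 1338) in early samples. Lhx8, a homeobox factor of the oocyte, changed by -5.77 ± 0.17 and Bmp6 by -4.92 ± 0.15. Figla, the E-box factor named above, was called lower on average (-1.40 ± 0.18) without holding. It had 11.6 to 31.2 on the late arrays, against 26.7, 33.6 and 39.6 in 1-cell embryos and 107 to 209 in oocytes, so late and 1-cell arrays overlapped.

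Of 8 zona pellucida and egg surface genes, 5 were held lower and 1 higher (62.5% and 12.5%, against 21.0% and 21.3% over all genes tested). Zp3, the sperm-binding coat protein of the zona, had 31.4 to 120 (median 62.2) in late embryos and 1162 to 7428 (median 6750) in early samples. Zp2 changed by -6.30 ± 0.22 and Zp1 by -3.85 ± 0.17. All 3 were also lower in 1-cell embryos than in oocytes, at -2.42 for Zp3, -3.29 for Zp2 and -2.18 for Zp1 (log2), and no late array reached the level of any early one. Cd9, the egg tetraspanin needed for sperm fusion, went the other way and had 1596 to 2790 (median 1912) in late embryos and 121 to 513 (median 398) in early samples. Cd81, another tetraspanin, did not pass the test (0.03 ± 0.15), with 59.8 to 124 (median 85.3) in late embryos and 59.7 to 110 (median 84.7) in early samples. Cd9 was no longer held after scaling to the hybridisation controls.

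Maternal effect factors, which the oocyte supplies for the first divisions, were held lower in 10 of 15 genes and higher in 2, with a median of -3.75. These were 66.7% lower and 13.3% higher, against 21.0% and 21.3% over all genes tested. Besides Tcl1b1 and H1f8, the falls included Rfpl4 (-6.82 ± 0.18), Tcl1 (-5.69 ± 0.16) and Spin1, a spindle-associated chromatin reader (-4.76 ± 0.13, with all 4 of its probe sets held lower). Bcl2l10, an oocyte member of the Bcl2 family, had 21.4 to 163 (median 81.7) in late embryos and 6993 to 17966 (median 8245) in early samples. A dimmer probe set of Bcl2l10 did not hold (0.31). Dppa3, which protects the maternal genome's methylation after fertilization, changed by -0.56 ± 0.11 on average without holding. It had 2132, 2269 and 3054 in blastocysts and 5693 to 7577 in 8-cell embryos, against 6718 to 8724 in 1-cell embryos and 4088 to 5426 in oocytes.

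Among proteins that store and translate maternal messages, members moved in opposite directions. Of 21 RNA storage and germ cell RNA-binding genes, 9 were held lower and 6 higher (42.9% and 28.6%). Over all genes tested the shares were 21.0% and 21.3%. The median of the list was 0.08 and turned to -0.30 after scaling to the hybridisation controls. Dazl, a translational activator of germ cells, had 10.6 to 70.4 (median 18.1) in late embryos and 1352 to 5516 (median 2703) in early samples. Lsm14b changed by -5.26 ± 0.15, Elavl2 by -5.17 ± 0.18 and Ybx2, the germ cell Y-box protein that coats stored messages, by -2.46 ± 0.17. Pabpc1, the general poly(A)-binding protein, had 3474 to 4111 (median 3837) in late embryos and 147 to 414 (median 202) in early samples, a change of 4.07 ± 0.14. Igf2bp1 rose by 3.74 ± 0.21. Ybx1, the somatic relative of Ybx2, did not hold (0.65 ± 0.11), and its late arrays, at 6462 to 16328, overlapped with the 1-cell arrays at 9621 to 11912.

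Messages of the deadenylation and decay machinery were held lower in 8 of 22 genes and higher in 3, or in 6 and 1 after scaling to the hybridisation controls. With the deposited scaling these were 36.4% lower and 13.6% higher, against 21.0% and 21.3% over all genes tested. Cnot7, a deadenylase of the CCR4-NOT complex, had 28.8 to 81.0 (median 57.8) in late embryos and 596 to 2026 (median 767) in early samples, although a dimmer probe set of Cnot7 did not hold (-0.34). The decapping cofactor Dcp1a changed by -4.01 ± 0.11 and the deadenylase subunit Pan2 by -2.23 ± 0.17. Zfp36l2, which directs decay of AU-rich messages, was higher, with 144 to 354 (median 256) in late embryos and 1.7 to 29.8 (median 4.5) in early samples; its dimmer probe set did not hold (0.12).

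Genes of meiotic arrest and maturation were held lower in 10 of 26 (38.5%) and higher in 3 (11.5%), against 21.0% and 21.3% over all genes tested. Mos, the kinase that holds the egg in metaphase, had 22.4 to 62.6 (median 39.9) in late embryos and 2011 to 4323 (median 3622) in early samples. Plat, a protease released by the egg, changed by -5.74 ± 0.18, and Gpr3, the receptor that keeps the oocyte in prophase, by -3.35 ± 0.16. Ccne1, a cyclin of the start of S phase, was held higher at 1.77 ± 0.15, while Ccna2 was called higher without holding (0.31 ± 0.09) and turned to -0.07 after scaling to the hybridisation controls.

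**Figure D3:**
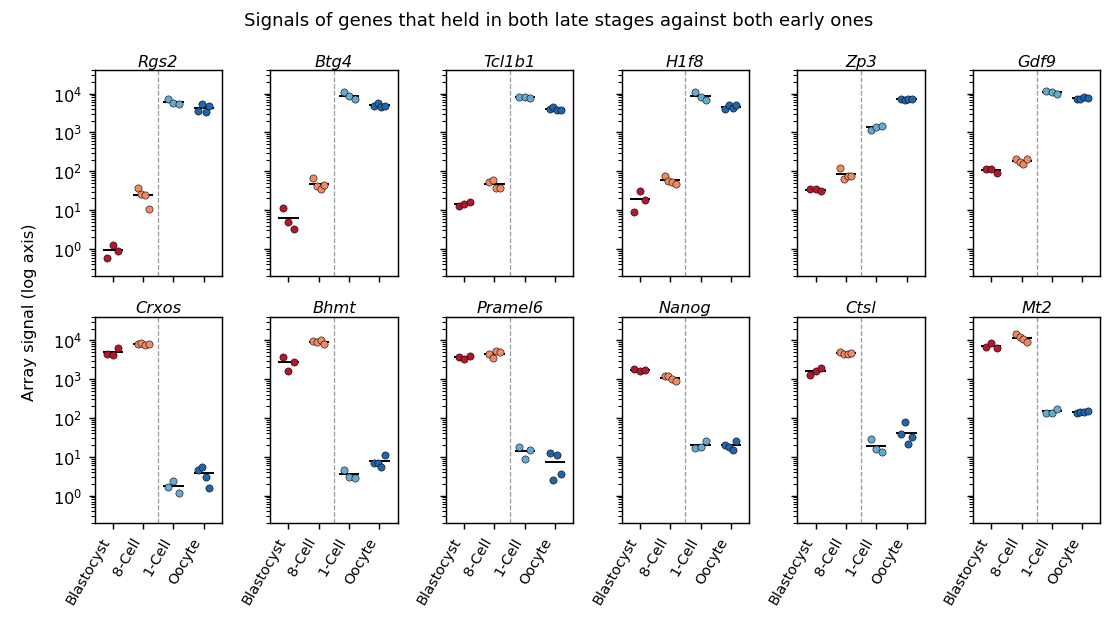
Signal of 12 held genes on each of the 14 arrays (points, log axis), with the mean of each stage as a bar and a dashed line between late stages on the left and early stages on the right. In every panel the 7 late arrays lie on the opposite side of a gap from the 7 early arrays, below it for Rgs2, Btg4, Tcl1b1, H1f8, Zp3 and Gdf9 and above it for Crxos, Bhmt, Pramel6, Nanog, Ctsl and Mt2.

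Several of the largest rises belonged to genes of very low signal in early samples. For 556 of the 1669 probe sets held higher, no early array was above the filter level of 41.1. For 378 of the 1550 held lower, no late array was. Such probe sets entered the test only through the era in which they are high. Crxos, a homeobox gene known from preimplantation embryos, had 4279 to 8723 (median 7588) in late embryos and 1.2 to 5.6 (median 2.4) in early samples, a change of 8.88 ± 0.11 with an adjusted p of 2.14e-20. Calcoco2, an autophagy receptor in human cells, had 3154 to 4860 (median 3650) in late embryos and 0.8 to 2.8 (median 1.4) in early samples. No early array came near a late one for either gene, but a lack of overlap was part of the rule that picked the largest changes. Bhmt, which remakes methionine from homocysteine with betaine, had 1613 to 9895 (median 7908) in late embryos and 2.9 to 11.4 (median 5.6) in early samples. Pramel6 and Pramel7, relatives of the tumour antigen PRAME that sustain pluripotency in mouse embryonic stem cells, changed by 7.61 ± 0.15 and 7.12 ± 0.24. Cd63, a tetraspanin of late endosomes, rose by 7.61 ± 0.10 and Bach1, a haem-sensing repressor, by 7.54 ± 0.16. Mkrn1, a ubiquitin ligase, rose by 6.60 ± 0.15, Elovl6, which lengthens fatty acids, by 5.75 ± 0.13, and Timd2, a receptor for ferritin, by 6.39 ± 0.09. Every probe set tested for Mkrn1, Elovl6 and Timd2 was held higher.

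Most pluripotency genes were held higher. Of 31 pluripotency and inner cell mass genes, 19 were held higher and 2 lower (61.3% and 6.5%), with a median of 2.27. Over all genes tested the shares were 21.3% and 21.0%. Nanog, a homeobox factor of the pluripotent epiblast, had 901 to 1789 (median 1178) in late embryos and 14.9 to 25.4 (median 18.2) in early samples, a change of 5.49 ± 0.12. Of the Krüppel-like factors in the list, Klf5 rose by 5.22 ± 0.24, Klf4 by 4.23 ± 0.13 and Klf2 by 1.92 ± 0.23. Tfcp2l1, a partner of the naive state, rose by 5.54 ± 0.24, and Fbxo15, a stem cell F-box gene, by 5.08 ± 0.12. Pou5f1, which the oocyte also expresses, had 561 to 795 (median 668) in late embryos and 241 to 563 (median 283) in early samples. It was held at 0.92 ± 0.14, but the highest 1-cell array overlapped with the lowest blastocyst array, and the call ended when arrays were centred on the median or scaled to the hybridisation controls, or when 1-cell replicate 1 or blastocyst replicate 1 was left out. Sox2 was called higher on average (2.44 ± 0.14) without holding. It had 843 to 1319 in blastocysts and 58.1 to 92.3 in 8-cell embryos, against 55.6 to 60.4 in 1-cell embryos and 32.4 to 42.1 in oocytes.

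Most trophectoderm genes were called higher on average, and several were far higher in blastocysts than in 8-cell embryos. Of 32 tested, 12 were held higher and 2 lower (37.5% and 6.2%, against 21.3% and 21.0% over all genes tested), with a median of 1.40. On average 26 of the 32 were called higher, against 2235 of 5877 over all genes tested. With scaling to the hybridisation controls 7 of the 32 were held higher. Krt8 and Krt18, the keratins of the first epithelium, changed by 5.32 ± 0.30 and 4.41 ± 0.16. Krt8 had 3231, 3404 and 4331 in blastocysts and 125 to 421 in 8-cell embryos, against 6.2 to 59.1 in 1-cell embryos and 7.2 to 22.2 in oocytes. Fabp3, a fatty acid carrier, had 2184 to 3792 in blastocysts and 135 to 241 in 8-cell embryos, against 2.7 to 34.7 over the 7 early arrays. Tead4, the factor that starts the trophectoderm programme, was held at 0.96 ± 0.11 by its brightest probe set and more strongly by its other 3 (2.38, 3.05 and 4.09), and that brightest set did not hold after scaling to the hybridisation controls. Id2 (3.97 ± 0.31), Elf5 (1.89 ± 0.20) and Krt7 (1.78 ± 0.24) were called higher on average without holding: blastocysts had 3262 to 5344 for Id2, while 8-cell embryos had 35.3 to 310.

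Among 50 genes of epithelial junctions and cavitation, 16 were held higher and 5 lower, with a median of 1.13, and 9 were held higher with scaling to the hybridisation controls. F11r, a junctional adhesion molecule, had 1449 to 2393 (median 1555) in late embryos and 19.7 to 48.2 (median 29.5) in early samples. Cldn7, a claudin of tight junctions, rose by 4.87 ± 0.14 and Epcam, an epithelial adhesion molecule, by 3.76 ± 0.21, and Epcam was 3.82 ± 0.30 higher still in blastocysts than in 8-cell embryos. The cytoskeletal actin gene Actb rose by 3.43 ± 0.12. Cdh1, the cadherin of compaction, did not pass the test (-0.29 ± 0.15), with 101 to 202 (median 166) in late embryos and 159 to 242 (median 169) in early samples; it was called lower after quantile normalization, median centring and scaling to the hybridisation controls. Atp1b1, a subunit of the sodium pump that drives cavitation, did not pass either (0.30 ± 0.16) and was dim on all arrays.

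A pair of connexins moved in opposite directions. Gja4, the gap junction protein that couples the oocyte to its follicle cells, had 5.2 to 9.1 (median 5.8) in late embryos and 601 to 1785 (median 1331) in early samples, a change of -5.89 ± 0.12. Gja1, the connexin of the compacted embryo, had 4080 to 8026 (median 6513) in late embryos and 46.4 to 619 (median 163) in early samples, a change of 5.22 ± 0.23 that its second probe set shared (4.18). A pair of lactate dehydrogenase subunits was compared in the same way. Ldhb, the heart form, had 18.5 to 149 (median 73.6) in late embryos and 4858 to 5806 (median 5581) in early samples, while Ldha, the muscle form, was called higher on average (2.02 ± 0.27) but not held, with 211 to 250 in blastocysts and 18.9 to 81.7 in 8-cell embryos. Btg1, of the family of Btg4, was held at 1.41 ± 0.15, a call that ended under all 3 other scalings, with no filter, with no intensity trend, with the offset at the median and when any of 10 arrays was left out, and Btg2 was not held (-0.34 ± 0.13).

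Ribosomal proteins formed the list with the largest share held higher among those in the plot of lists. Of 27 tested, 22 were held higher (81.5%, against 21.3% over all genes tested) and the other 5 were not held, with a median of 3.06. Rps3 had 6506 to 14556 (median 10189) in late embryos and 49.1 to 813 (median 622) in early samples, a change of 5.06 ± 0.15. Rpl8 rose by 4.48 ± 0.10, Rpl7 by 4.41 ± 0.12 and Rps18 by 4.30 ± 0.13. These genes were far dimmer in 1-cell embryos than in oocytes. Rps3 had 49.1 to 121 in 1-cell embryos and 622 to 813 in oocytes. Beside this stand the 18S ribosomal RNA control probe sets, which averaged 10.1 in blastocysts and 10.4 in 8-cell embryos, against 13.5 in 1-cell embryos and 8.63 in oocytes (mean log2 signal); their part in the result was not tested. With scaling to the hybridisation controls, 15 of the 27 were held higher. Many ribosomal protein genes have processed pseudogenes and near-identical copies, so single members are uncertain.

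Genes of ribosome assembly were weighted towards late stages as well. In the nucleolus and ribosome assembly list, 21 of 42 genes were held higher and 1 lower, with a median of 1.38. Nop16 rose by 5.45 ± 0.16 and Nhp2, a protein of the guide RNA particles that modify ribosomal RNA, by 4.12 ± 0.13. Taf1d, a subunit of the RNA polymerase I selectivity factor, rose by 4.11 ± 0.19 with all 3 of its probe sets held. Npm1, a nucleolar chaperone already abundant in the egg, was called higher without holding (1.02 ± 0.10). Of 44 translation factors, 18 were held higher and 4 lower (40.9% and 9.1%), with a median of 0.64. After scaling to the hybridisation controls 9 were held higher and 6 lower, with a median of 0.26. Eif1a rose by 5.63 ± 0.14, Eif2b5, a subunit of the exchange factor for eIF2, by 4.58 ± 0.20, and Eif4ebp1, an inhibitor of cap binding, by 3.50 ± 0.20. The kinases Eef2k (-3.40 ± 0.23) and Eif2ak4 (-3.08 ± 0.24), which restrain translation, fell.

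Splicing and protein quality control were also weighted towards late stages with the deposited scaling. Over all genes tested, 21.3% were held higher and 21.0% lower. Of 55 splicing genes, 24 were held higher and 3 lower (43.6% and 5.5%), with Srsf6 (4.02 ± 0.13) and Hnrnpm (3.78 ± 0.21) in front. Of 40 proteasome genes, 16 were held higher and 3 lower. Psmd14, the deubiquitinase of the lid, had 1258 to 2340 (median 1724) in late embryos, against 20.4 to 49.8 in 1-cell embryos and 429 to 596 in oocytes, and was no longer held after scaling to the hybridisation controls. Psmb1 had 392 to 1425 on the late arrays, against 24.0 to 28.7 in 1-cell embryos and 585 to 889 in oocytes, and was called higher on average (2.52 ± 0.20) without holding. Of 31 chaperones, 10 were held higher and 1 lower (32.3% and 3.2%), led by Bag3 (5.59 ± 0.22) and the chaperonin subunits Cct6a (5.16 ± 0.21) and Cct4 (3.97 ± 0.11). The heat-shock genes Hspa1a (-0.32 ± 0.28) and Hspa1b (1.60 ± 0.29), near-identical copies, did not hold. With scaling to the hybridisation controls 9 of 55 splicing, 4 of 40 proteasome and 5 of 31 chaperone genes were held higher. Over all probe sets it was 799 of 7803, a share close to that of the proteasome genes.

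Oxidative phosphorylation genes were called higher on average in 54 of 71 cases (2235 of 5877 over all genes tested), with a median of 1.23. Of the 71, 21 were held higher and 4 lower (29.6% and 5.6%, against 21.3% and 21.0% over all genes tested). Cyc1, the haem-bearing subunit of complex III, had 2163 to 5946 (median 2590) in late embryos and 94.5 to 446 (median 252) in early samples; a dimmer probe set did not hold (-0.50). Cox17, a copper chaperone, was called higher on average (2.51 ± 0.13) without holding. It had 1839 to 3796 on the 7 late arrays, against 111 to 116 in 1-cell embryos and 1875 to 2742 in oocytes, and late arrays and oocytes overlapped. The tissue-restricted subunits Cox6a2 and Cox6b2 went the other way, at -3.02 ± 0.22 and -2.96 ± 0.16. With scaling to the hybridisation controls 4 of the 71 were held higher, a smaller share than the 799 of 7803 over all probe sets.

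**Figure D4:**
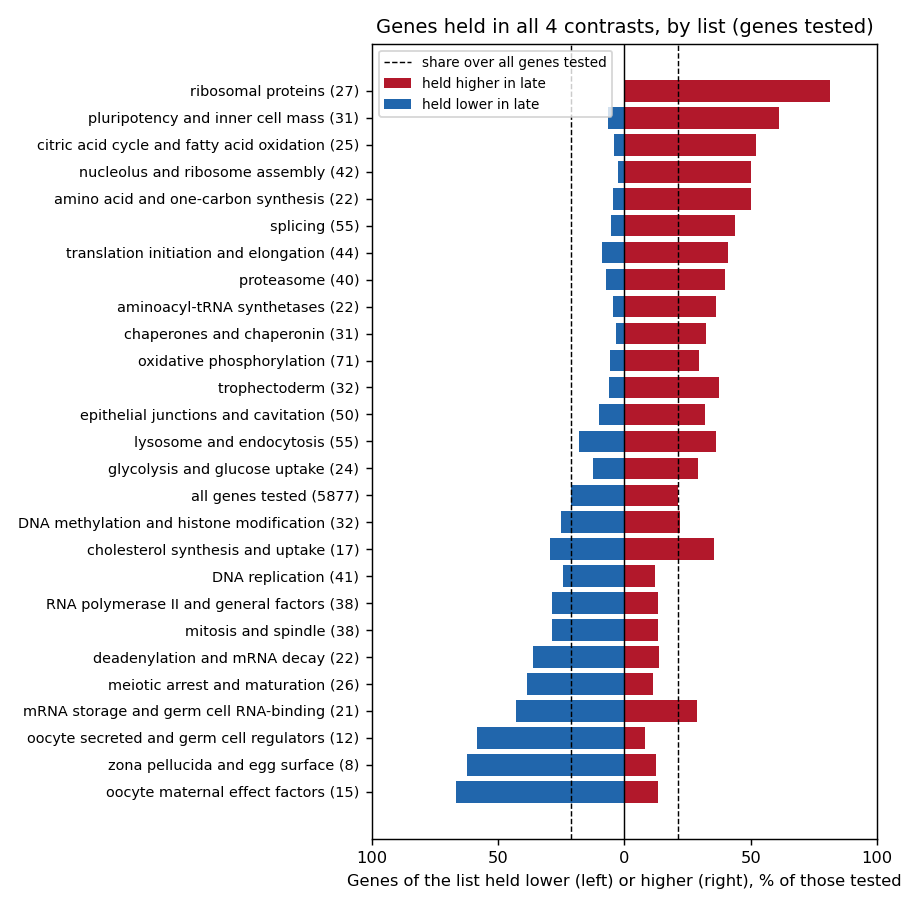
Share of each gene list that was held higher (red, to the right) or lower (blue, to the left) in late stages, in percent of the genes tested, whose number stands in brackets. Dashed lines mark the shares over all 5877 genes, 21.3% higher and 21.0% lower, and ribosomal proteins, at 81.5% higher, and maternal effect factors, at 66.7% lower, stand at the ends.

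Amino acid and one-carbon genes, which supply building blocks and methyl groups, were more often held higher than lower. Of 22 amino acid and one-carbon genes, 11 were held higher and 1 lower, with a median of 1.47. Psat1, of the serine pathway, had 1297 to 6896 (median 4956) in late embryos and 2.9 to 17.7 (median 4.7) in early samples. Prps1, which makes the sugar phosphate of nucleotides, rose by 6.27 ± 0.14, Gart, of purine synthesis, by 3.47 ± 0.11, and Odc1, which starts polyamine synthesis, by 3.27 ± 0.12. Outside that list, both folate carriers that the naming rule picked rose. Folr1, the folate receptor, had 1249 to 1718 (median 1438) in late embryos and 7.5 to 23.7 (median 11.7) in early samples. Slc46a1, the proton-coupled folate transporter, had 94.3 to 157 (median 137) in late embryos and 1.2 to 2.2 (median 1.8) in early samples. Nme2, a nucleoside diphosphate kinase, rose by 6.75 ± 0.16.

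Genes of fuel use changed as well. In the list of citric acid cycle and fatty acid oxidation genes, 13 of 25 were held higher and 1 lower (52.0% and 4.0%). Over all genes tested the shares were 21.3% and 21.0%. The median of the list was 1.45, and 4 of the 25 were held higher after scaling to the hybridisation controls. Idh2 had 247 to 494 (median 351) in late embryos and 4.3 to 8.8 (median 7.8) in early samples. Cpt1a, the gate of fatty acid oxidation, rose by 3.90 ± 0.19 and Acadl by 3.69 ± 0.16. Of 24 glycolysis and glucose uptake genes, 7 were held higher (29.2%, against 21.3% over all genes tested) and 3 lower (12.5%, against 21.0%). Their median was 0.39, and 3 were held in each direction after scaling to the hybridisation controls. Hk2 (3.98 ± 0.22) and the glucose transporter Slc2a3 (2.98 ± 0.23) rose, the second of these no longer held after scaling to the hybridisation controls. Slc2a1, another glucose transporter, was called lower without holding (-1.31 ± 0.18), with 45.3 to 93.8 in blastocysts and 4.3 to 7.6 in 8-cell embryos, against 87.5 to 104 in 1-cell embryos and 46.1 to 89.9 in oocytes. Pdk1, which shuts off pyruvate oxidation, changed by -2.15 ± 0.18. Cholesterol genes split, with 6 of 17 held higher and 5 lower (35.3% and 29.4%), or 2 and 3 after scaling to the hybridisation controls. Ebp rose by 3.24 ± 0.16, while Sc5d (-2.77 ± 0.15), a late enzyme of the route, and Hmgcs1 (-2.47 ± 0.14), an early one, fell.

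Lysosomal genes moved in both directions. In the lysosome and endocytosis list, 20 of 55 genes were held higher (36.4%, against 21.3% over all genes tested). A further 10 were held lower (18.2%, against 21.0%), and the median of the list was 0.20. After scaling to the hybridisation controls 8 were held higher and 4 lower, and the median turned to -0.12. Ctsl had 1290 to 5129 (median 4414) in late embryos and 13.6 to 77.0 (median 29.0) in early samples. Ctsc rose by 6.57 ± 0.15 and Ctsa by 5.70 ± 0.12, and 1 of the 3 probe sets of Ctsc did not hold (1.46). Ctsh, another cathepsin, changed by -3.68 ± 0.22, with 2.6 to 351 (median 151) in late embryos and 662 to 1673 (median 1167) in early samples. All of these proteases were lower in blastocysts than in 8-cell embryos, at -1.55 for Ctsl, -1.53 for Ctsc, -1.96 for Ctsa and -3.05 for Ctsh (log2). The metallothioneins Mt1 and Mt2, which bind zinc and copper, rose too. Mt2 had 6484 to 14480 (median 8850) in late embryos and 135 to 175 (median 140) in early samples, and Mt1 rose by 5.58 ± 0.19. 

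Chromatin regulators changed in both directions. Of 32 genes of DNA methylation and histone modification, 7 were held higher and 8 lower, close to the shares over all genes. Dnmt1, the maintenance methyltransferase, had 146 to 263 (median 210) in late embryos and 1232 to 3296 (median 2293) in early samples, and its cofactor Uhrf1 changed by -3.11 ± 0.27. A dimmer probe set of Dnmt1 did not hold (0.64). Hdac1, a histone deacetylase, had 327 to 1047 (median 880) in late embryos and 7.9 to 59.7 (median 13.8) in early samples. Smarcc1, a subunit of the BAF remodelling complex, rose by 3.99 ± 0.18 and Kat2b, an acetyltransferase, by 3.85 ± 0.18. Of 20 linker histone and chromatin assembly genes, 4 were held higher and 5 lower, again close to the shares over all genes. H2az1 rose by 3.50 ± 0.16 and the histone chaperone Set by 3.84 ± 0.16, while H1f8 fell, as given above. Xist, the RNA that coats the inactive X chromosome, had 203 to 614 (median 483) in late embryos and 7.8 to 38.9 (median 15.3) in early samples. Of 18 imprinted genes, 3 were held higher and 4 lower, close to the shares over all genes, and Mest (-4.24 ± 0.21) and Cdkn1c (-2.74 ± 0.17) were among those held lower.

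Genes of transcription and division leaned somewhat towards the early stages. In both the polymerase and the mitosis list 28.9% were held lower and 13.2% higher, against 21.0% and 21.3% over all genes tested. In lists of 38 genes this gap rests on few genes. Replication genes, with 24.4% held lower and 12.2% higher, had a median near 0. Of 38 RNA polymerase II and general factor genes, 11 were held lower and 5 higher, with a median of -0.44. Gtf2b, which places the polymerase at the start site, changed by -3.11 ± 0.12 and the Mediator subunit Med28 by -2.91 ± 0.11, while Polr2m and Polr2e rose by 2.32 and 2.05 and did not hold after scaling to the hybridisation controls. Of 41 replication genes, 10 were held lower and 5 higher, with a median of 0.01. The origin subunits Orc5 (-3.78 ± 0.14) and Orc4 (-2.15 ± 0.12) fell, and Rfc4, of the clamp loader, rose by 2.55 ± 0.19 but did not hold after scaling to the hybridisation controls. Of 38 mitosis genes, 11 were held lower and 5 higher, with a median of -0.68. Pttg1, the securin that guards sister chromatids, had 491 to 1110 (median 772) in late embryos and 5369 to 14842 (median 6851) in early samples. The checkpoint kinase Ttk changed by -3.37 ± 0.13, Plk4, which copies centrioles, by -2.71 ± 0.14, and Aspm, a spindle pole protein, by -5.99 ± 0.13. Cdc23, a subunit of the anaphase-promoting complex, rose by 3.25 ± 0.18. With scaling to the hybridisation controls 1 polymerase and general factor gene, 0 replication genes and 1 mitosis gene were held higher, with 9, 7 and 8 held lower in that order.

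Some held genes were level within each era. Neither late against late nor early against early passed the test for 524 of the 1669 probe sets held higher and for 537 of the 1550 held lower. Grk6, a kinase of G-protein-coupled receptors, differed by 0.01 between blastocysts and 8-cell embryos and by -0.02 between 1-cell embryos and oocytes, and by 3.43 ± 0.15 between the eras. Slc46a1, Ckmt1, Reep1 and the arginine methyltransferase Prmt1 were similar, with differences within an era of at most 0.10 in size, although a dimmer probe set of Ckmt1 did not hold (0.18). Caprin2 changed by -3.02 ± 0.12 between the eras and by -0.07 and -0.10 within them, and Bnc1, a zinc-finger gene of the oocyte, by -4.76 ± 0.15 between the eras and by 0.03 and -0.06 within them. Prmt1 had 963 to 1235 (median 1112) in late embryos and 150 to 205 (median 171) in early samples.

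Other genes changed again within an era. Among the 1669 probe sets held higher, 386 were called higher and 465 lower in blastocysts than in 8-cell embryos. In the same set, 1-cell embryos were above oocytes for 115 and below them for 453. Among the 1550 held lower, blastocysts were above 8-cell embryos for 300 and below them for 244. There, 1-cell embryos were above oocytes for 568 and below them for 224. Over all 7803 probe sets, blastocysts were above 8-cell embryos for 1782 and below for 1669. Over the same 7803, 1-cell embryos were above oocytes for 1421 and below for 1623. Holding was defined on these same arrays, so the split of held probe sets is a description. These counts within the eras rest on the scaling, and after scaling to the hybridisation controls blastocysts were called above 8-cell embryos for 4573 probe sets and below for 198, against 1782 and 1669 with the deposited scaling.

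For a small set, some of the 4 contrasts were called higher and others lower. Gsta4, a glutathione transferase, had 467, 570 and 528 in blastocysts and 9.4 to 62.8 in 8-cell embryos, against 41.4 to 132 in 1-cell embryos and 341 to 602 in oocytes. Lcp1, an actin-bundling protein, had 1095 to 1298 in blastocysts and 10.4 to 44.1 in 8-cell embryos, against 10.4 to 51.5 in 1-cell embryos and 62.7 to 118 in oocytes. Xrcc5, the larger subunit of the Ku DNA repair complex, had 86.5 to 120 in blastocysts and 5.6 to 31.2 in 8-cell embryos, against 7.4 to 28.4 in 1-cell embryos and 297 to 314 in oocytes. All 3 genes were higher in blastocysts than in 8-cell embryos and lower in 1-cell embryos than in oocytes. Ddit4, a stress-induced inhibitor of mTOR, was not of that set: blastocysts had 72.5 to 127, while 8-cell embryos had 1485 to 2261 and the early arrays had 1334 to 3683.

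**Figure D5:**
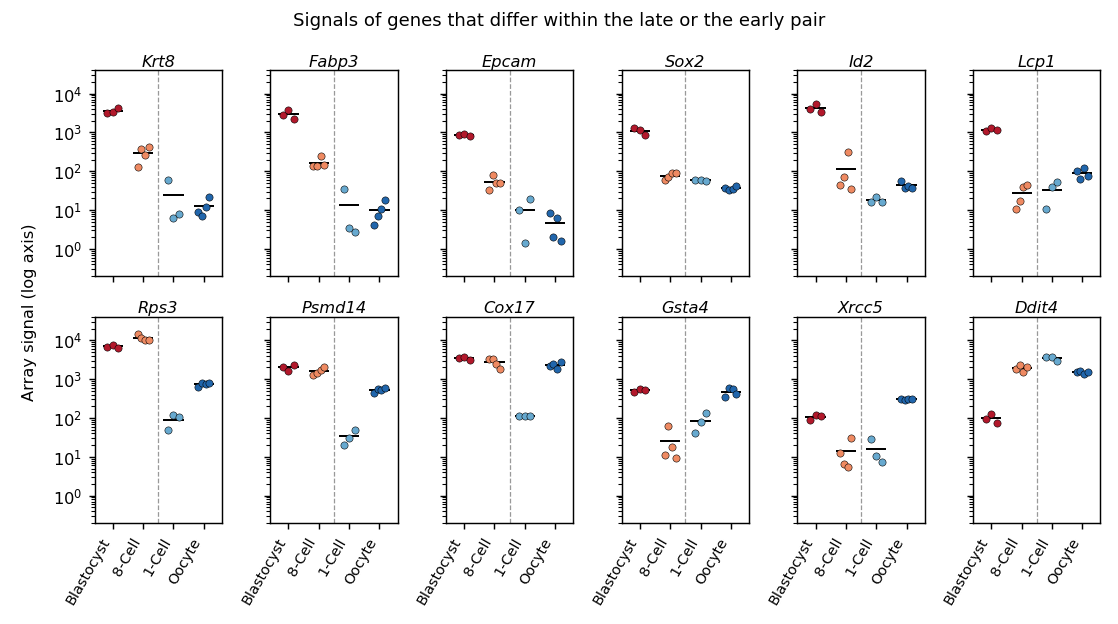
Signal on each of the 14 arrays (points, log axis) of 12 genes that differ within the late or within the early stages, with the stage mean as a bar and a dashed line between late stages on the left and early stages on the right. Krt8, Fabp3, Epcam, Sox2, Id2 and Lcp1 are highest in blastocysts, Rps3, Psmd14 and Cox17 are lowest in 1-cell embryos, Gsta4 and Xrcc5 are high in blastocysts and oocytes, and Ddit4 is lowest in blastocysts.

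Markers of other cells were set beside these results. Of 13 cumulus and granulosa markers on the array 3 were bright enough to be tested, and of 11 blood and macrophage markers 6 were, and these 9 were not held in either direction by limma. The cumulus markers summed to 383 to 544 in blastocysts and 474 to 605 in 8-cell embryos, against 504 to 583 in 1-cell embryos and 464 to 576 in oocytes. Nr5a1 made up most of these sums, so they say little of the other cumulus markers. Its mean signal was 355.7 in blastocysts and 396.8 in 8-cell embryos, against 368.3 in 1-cell embryos and 346.5 in oocytes. Blood markers summed to 444 to 598 in blastocysts and 436 to 1027 in 8-cell embryos, against 495 to 621 in 1-cell embryos and 394 to 481 in oocytes. Of 11 markers of oviduct, uterus and stroma, Wfdc2 was held higher, with 190 to 213 in blastocysts and 8.5 to 53.5 in 8-cell embryos, against 1.9 to 6.1 over the early arrays, a call that ended after scaling to the hybridisation controls. The summed signal of these 11 was 903 to 1190 in blastocysts and 730 to 7143 in 8-cell embryos, against 919 to 1175 in 1-cell embryos and 845 to 948 in oocytes. The top of that range was 8-cell replicate 2, where Ovgp1, the oviduct's glycoprotein, had 6212, against 43.1 to 114 on the other 8-cell arrays. Without that array 1636 probe sets were held higher and 1543 lower. Ltf, a marker of the same list that was not tested and so is not in the sum, was also highest in 8-cell embryos. Its mean signal was 213.9 there and 4.4 in blastocysts, against 33.3 in 1-cell embryos and 11.2 in oocytes. Of 7 sperm and testis markers, Odf2 and Spa17 were held lower (28.6%, against 21.0% over all genes tested). The summed signal of the 7 was 293 to 405 in blastocysts and 266 to 486 in 8-cell embryos, against 849 to 873 in 1-cell embryos and 664 to 974 in oocytes. Odf2 was the largest part of the early sums. Its mean signal was 123.1 in blastocysts and 39.5 in 8-cell embryos, against 459.0 in 1-cell embryos and 364.1 in oocytes. The part of these markers in the results was not tested. As for the labelled stages, Zp3, Gdf9, Bmp15 and Mos were bright on every oocyte array, and Nanog, Krt8 and Krt18 were brighter on every blastocyst and 8-cell array than on any early one. Other markers set for these stages were less clear. Pou5f1 (561 to 795 late, 241 to 563 early) and Sox2 (58.1 to 1319 late, 32.4 to 60.4 early) overlapped between the eras, and Atp1b1 was not called (0.30 ± 0.16). The markers Cdx2, Tfap2c, Zfp42 and Dppa4 are not given here.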

How the data were processed

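The 14 arrays titled Oocyte, 1-Cell, 8-Cell or Blastocyst were grouped by title. Per the labels, total RNA was amplified by in vitro transcription in 2 rounds. The deposited values were linear signal intensities, 1 per probe set and array. Their trimmed mean, over the middle 96% of values, was 149.9 to 150.0 on every array, and which software and target gave it is not given in the sources used here. Of 12488 probe sets, 66 controls were left out, 10855 had 1 gene symbol, 396 several and 1237 none, per the platform's annotation, and 10839 symbols were updated by Entrez ID. Signals were used as log2(signal + 10.7), the 25th percentile of all values, for probe sets above 41.1, the median, on at least 3 arrays. The brightest probe set with 1 symbol stood for its gene.

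A mean per stage was fitted with limma 3.58.1 in R 4.3.3 (lmFit, eBayes with an intensity trend, 10 residual degrees of freedom). Tests were two-sided, with p adjusted by Benjamini and Hochberg over all 7803 probe sets within each contrast, and a call meant an adjusted p below 0.05. The fit was tested on simulated data with known changes. Errors are standard errors of the fitted change. Contrasts share arrays, so counts that join them, such as the held count and its split by changes within an era, carry no test of overlap. The alternatives were 2 other normalizations, hybridisation control scaling, 2 other offsets, 2 other filters, array weights, no trend, the replicate number as a block, all 17 arrays, equal weight per array, unmarked probe sets alone, averaging of all probe sets per gene for list medians, and each array left out in turn.

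The 37 gene lists and the members were chosen with earlier results of these data known, and list counts carry no test. The rule for named genes took the 15 largest held changes in each direction without overlap between arrays. It added up to 5 held and 3 other members of each list, landmark genes and family pairs, and 8 genes with opposite calls. Last came 8 in each direction, changed at least 4-fold, with the smallest differences within the eras. The genes named are a part of these, picked after their values were seen. Promoter sequences are RefSeq's.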

Additional observations from a re-analysis of the deposited data

Results flagged for a closer look

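In groups of 4 arrays, 1 array lay apart from the other 3 for a number of the named genes, by a test that chance passes in about 1 in 20 groups. The test was run on the 8-cell and on the oocyte arrays of every named gene, so many such arrays would arise by chance alone. The signal of the array that lay apart stands in brackets. The array that lay below the rest was 8-cell replicate 4 for Klf2 (45.8), Mt1 (770) and Rfc4 (126), 8-cell replicate 3 for Zp1 (41.5), 8-cell replicate 2 for Folr1 (1438), oocyte replicate 4 for Bmp15 (843), Ctsa (4.5), Rfc4 (47.5) and Ccna2 (326), and oocyte replicate 3 for Slc2a3 (4.4), Grk6 (6.7) and Eif4ebp1 (33.1). The array that lay above the rest was 8-cell replicate 4 for Cdkn1c (54.4) and Eif2b5 (666), 8-cell replicate 3 for Fabp3 (241), 8-cell replicate 2 for Figla (31.2), 8-cell replicate 1 for Rfpl4 (86.2), oocyte replicate 4 for Itpr2 (6442), oocyte replicate 3 for Calcoco2 (1.4), oocyte replicate 2 for Ctsh (1673), and oocyte replicate 1 for Bach1 (11.5), Nme2 (73.5) and H2az1 (583).

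For 5 of the named genes called on average, some of the 4 contrasts were called higher and others lower, blastocysts and 8-cell embryos lay on opposite sides of an early stage, and the difference between them passed limma's test. The difference of blastocysts minus 8-cell embryos (log2) was 4.09 for Gsta4, 5.05 for Lcp1, 2.36 for Xrcc5, -1.42 for Dppa3 and -0.74 for Ybx1, with adjusted p of 8.64e-08, 3.25e-09, 5.48e-06, 1.11e-06 and 0.00108 in that order.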

How the results depend on the processing

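Held counts stayed between 1571 and 1663 higher and between 1445 and 1582 lower when each array was left out in turn, and the average calls between 2796 and 2979 higher and between 2762 and 2944 lower. Within the eras, leaving out an array gave 1471 to 1797 probe sets above and 1332 to 1701 below in blastocysts against 8-cell embryos, and 1146 to 1474 above and 1394 to 1658 below in 1-cell embryos against oocytes. With scaling to the hybridisation controls 799 were held higher, blastocysts were above 8-cell embryos for 4573 and below for 198, and 1-cell embryos were above oocytes for 32 and below for 4509. Under it Ccna2 turned to -0.07, and the cause was not tested. Numbers shared by titles were not taken to pair arrays: same-numbered arrays of different stages correlated at -0.086 to 0.130 in their deviations from the stage means (median 0.014, 19 pairs), and 6 of 14 arrays correlated best with their own number. With the replicate block, 1648 were held higher and 1510 lower. The stricter filter tested 4574 probe sets, of which 2029 were called higher and 1954 lower and 1290 and 1192 held. Of 137 named genes that held, 127 still held after hybridisation control scaling, and 135 to 137 under each other alternative that tested all of them. None of them reversed under any alternative run.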
